A study of Mus musculus with 3 samples.

Results

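The cells described here are the barcodes of mouse submandibular gland organoids that were richest in UMIs of 5 genes, Gria3, Pcdh9, Anks1b, Ptprg and Man1a. Barcodes with at least 2000 UMIs, at least 500 detected genes and at most 20% mitochondrial (mt-) UMIs were pooled over 3 libraries. Each was scored by the share of its UMIs that the 5 genes held together, and the 10% with the highest score were taken. They were 2845 of 28450 eligible barcodes, out of 44717 barcodes deposited. They are called chosen below, and the remaining 25605 are called other. The choice used measured values, so the levels of the 5 genes only describe the chosen barcodes, and differences of other genes between chosen and other barcodes are descriptions of the same cells, with no test.

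Gria3 encodes a subunit of AMPA-type glutamate receptors, ion channels known best from excitatory synapses. Pcdh9 encodes a protocadherin, a cell adhesion protein, and Anks1b an adaptor protein with ankyrin repeats that is found at synapses and in nuclei. Ptprg encodes a receptor-type tyrosine phosphatase, and Man1a a Golgi mannosidase that trims N-linked glycans on newly made glycoproteins. All 5 lie in long genes with long introns. In single cell libraries primed on poly(A) tracts, reads from introns come largely from unspliced RNA in the nucleus, as do reads of the noncoding RNAs Malat1 and Neat1, whereas transcripts of ribosomal protein genes are mostly cytoplasmic and mt- transcripts stand for mitochondria. Salivary gland organoids are epithelial cultures of ductal character grown from dissociated gland.

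The organoids came from the submandibular glands of C57BL/6 mice aged 8 to 12 weeks and pooled 4 animals, per the labels. All libraries share the culture in Matrigel, in a medium with the growth factors EGF and FGF2, dexamethasone, insulin, the kinase inhibitor Y27632 and media conditioned with R-spondin1 and Wnt3a. One library was made from each of 3 groups: organoids given 7 Gy of protons on day 5 (plateau of the beam), organoids given 7 Gy of photons on day 5, and organoids that were not irradiated (control). All were collected on day 11 and handled on the same day. Trypsin-dissociated cells negative for propidium iodide, a dye that enters dead cells, were sorted, and 45000 per sample were loaded for droplet sequencing of transcript 3' ends.

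Each group was a single library, so differences between groups have no replicate check and no test was possible. All intervals below cover counting error at 95% and nothing else. The deposited matrices held 14525 proton, 15926 photon and 14266 control barcodes with 37116107, 47514102 and 40166701 UMIs, and 7939 proton, 10891 photon and 9620 control barcodes were eligible. The chosen barcodes held 6333718 UMIs in the proton library, 2228706 in the photon library and 1084325 in the control library, so a level of 10 CPM (UMIs of a gene scaled to the same total in every sum) stood for 63.3, 22.3 and 10.8 UMIs there. Between 18 and 28 eligible barcodes occurred in each pair of libraries, and no chosen barcode was shared.

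The chosen barcodes came mostly from the proton library. They made up 23.1% of its eligible barcodes (1835 of 7939, exact binomial interval 22.2 to 24.1%), 6.23% of those of the photon library (678 of 10891, 5.78 to 6.70%) and 3.45% of those of the control library (332 of 9620, 3.10 to 3.84%). The proton library held 64.5% of the chosen barcodes, against 27.9% of all eligible ones. The share was 6.70 times as high in the proton as in the control library and 1.80 times as high in the photon as in the control library. The order of proton, photon and control was kept in 12 of 12 alternative ways of choosing the barcodes that left the library shares free. Depth was somewhat lower in the chosen barcodes of each library, most so in photon. The median chosen barcode had 3035 UMIs in the proton, 2951 in the photon and 2947 in the control library, and the median other barcode had 3151, 3413 and 3222.

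The boundary cut a continuous distribution. The lowest score inside was 12.1827 and the highest outside 12.1824 rule gene UMIs per 10000 UMIs, and 499 chosen and 569 other barcodes lay within 10% of it. The median score was 16.7 in chosen and 2.79 in other barcodes. These scores rested on few molecules, with a median of 6 rule gene UMIs per chosen barcode and 1 per other barcode. No UMI of any of the 5 genes was found in 9891 other barcodes (38.6%). Most chosen barcodes did not hold all 5 genes: 267 had UMIs of 1 of them, 1191 of 2, 1091 of 3, 258 of 4 and 38 of all 5.

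**Figure D1:**
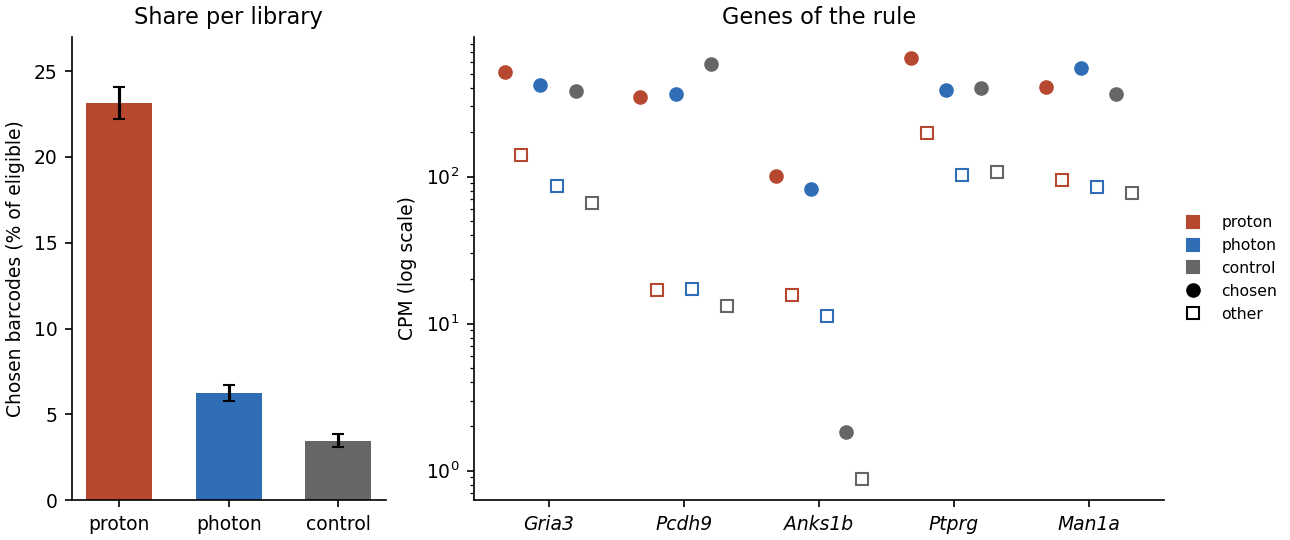
Left, share of eligible barcodes that were chosen in each library (%), with exact 95% binomial intervals as bars for counting error. Right, CPM of the 5 genes of the rule on a log axis, summed over chosen (filled circles) and other barcodes (open squares) of each library. The chosen share was 23.1% in proton, 6.23% in photon and 3.45% in control organoids, and Anks1b in the control library lay far below its level in the other libraries.

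Gria3 (X:41400854-41678601, mm10, 278 kb) stood at 518 CPM in chosen proton, 417 CPM in chosen photon and 385 CPM in chosen control barcodes. In other barcodes it stood at 139.5 CPM in proton, 87.0 CPM in photon and 66.3 CPM in control. Its level was thus ordered in the same way on both sides of the boundary. Over all eligible barcodes, the Gria3 level of proton was 2.94 times that of control (2.81 to 3.08), and that of photon 1.38 times (1.31 to 1.45).

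Pcdh9 (14:93013410-93890679, 877 kb) was the gene most confined to the chosen barcodes. It reached 349 CPM in proton, 362 CPM in photon and 583 CPM in control chosen barcodes, against 17.0, 17.1 and 13.2 CPM in the other barcodes of the same libraries. The chosen barcodes held 85.5% of all eligible Pcdh9 UMIs in the proton, 54.8% in the photon and 58.4% in the control library. They were 23.1%, 6.23% and 3.45% of the eligible barcodes there, and the ratio of chosen over other was 20.5, 21.1 and 44.2. Its UMIs were concentrated in few barcodes: 172 chosen proton, 68 chosen photon and 61 chosen control barcodes had at least 5 Pcdh9 UMIs, against 8 proton, 9 photon and 10 control barcodes among the others. Within the chosen barcodes Pcdh9 was the 1 gene of the 5 with its highest level in the control library, while over all eligible barcodes it was 2.96-fold higher in proton than in control (2.76 to 3.18).

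Anks1b (10:89873509-90973300, 1100 kb) was nearly missing from the control library. Chosen barcodes held 637 Anks1b UMIs (101 CPM) in proton, 183 UMIs (82.1 CPM) in photon and 2 UMIs (1.84 CPM) in control. Other barcodes held 15.8, 11.3 and 0.877 CPM. Over all eligible barcodes the Anks1b level of proton was 38.2 times that of control (26.9 to 56.2), and that of photon 16.8 times (11.7 to 24.7). Of the 5 genes it gave the smallest part of the score, 4.98% of the rule gene UMIs of chosen proton barcodes, 4.57% in photon and 0.106% in control.

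Ptprg (14:11553532-12242041, 689 kb) had 642 CPM in proton, 386 CPM in photon and 403 CPM in control chosen barcodes, and 197, 103 and 108 CPM in the others. Man1a (10:53904785-54076609, 172 kb) had 409.7 CPM in proton, 549 CPM in photon and 366 CPM in control chosen barcodes, and 95.3, 84.9 and 77.5 CPM in the others. Over all eligible barcodes Ptprg was 2.54-fold higher in proton than in control (2.45 to 2.64) and nearly level between photon and control (1.01-fold, 0.972 to 1.06). Man1a was 1.91-fold higher in proton (1.83 to 2.00) and 1.28-fold higher in photon (1.22 to 1.34) than in control.

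To see how far the 5 genes went together, the barcodes were chosen again on 4 genes and the gene left out was read. Chosen on the other 4, the top 10% held Gria3 at 1.68 times its level in the remaining barcodes of the proton library, 1.94 times in photon and 1.29 times in control. Pcdh9 stood at 2.10, 2.34 and 1.72 times, and Ptprg at 1.65, 1.78 and 1.29 times. Man1a was at 1.38 times in proton, 1.72 times in photon and 1.04 times in control, where the interval of 0.856 to 1.26 included equality. Anks1b was at 2.63 times in proton and 3.33 times in photon, and had 1 UMI in the control top 10% (0.948 times, 0.0233 to 5.69). These ratios were below those of the rule itself, which for Pcdh9 were 20.5, 21.1 and 44.2. Each left-out gene is itself a long gene, and long genes as a class were higher in the chosen barcodes (below).

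A second reading kept all 5 genes but assigned each UMI at random to one of 2 portions, chose barcodes on 1 portion and read the other. In the portion not used, the 5 genes together were 2.58-fold higher in chosen than in other barcodes of the proton library (2.49 to 2.68), 3.04-fold in photon (2.86 to 3.22) and 3.10-fold in control (2.84 to 3.37). Pcdh9 differed most, at 10.8-fold in proton, 9.73-fold in photon and 22.1-fold in control. Of the genes with a ratio in every library, Ptprg differed least, at 1.92-fold, 1.84-fold and 1.65-fold. Anks1b was 3.34-fold higher in proton and 4.29-fold in photon, and had 0 UMIs in chosen control barcodes, against 0.941 CPM in the others. Of the barcodes chosen in this way, 67.5% were among those chosen on all UMIs.

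The label of the cells names a glutamate receptor gene and a protocadherin gene, and neuronal markers did not accompany them. None of 10 neuronal and neuroendocrine markers (among them Snap25, Syt1, Rbfox3, Stmn2 and Chga) reached a mean of 10 CPM. Summed over the list they made 5.37 CPM in proton, 1.79 CPM in photon and 1.84 CPM in control chosen barcodes, against 3.70, 2.89 and 5.12 CPM in the others. In chosen barcodes 3 of the 10 were at 0 in all libraries, and 9 of the 10 were at 0 in photon and 9 in control. None of 17 other glutamate receptor genes was measured at 10 CPM, and their sum was 16.0 CPM in proton, 11.2 CPM in photon and 16.6 CPM in control chosen barcodes. Markers of fibroblasts, endothelium, immune cells, red cells, ionocytes, myoepithelium and granular tubules likewise had no member at 10 CPM, and their summed levels in chosen barcodes lay between 0.316 and 11.4 CPM for each list. Of the Schwann cell and glial list only Mbp was measured, at 1.29 times its level in other barcodes in proton, 1.39 times in photon and 0.863 times in control. Of the pericyte list only Notch3 was measured, at 1.02, 1.19 and 0.930 times, and of the acinar list only Amy1, a gene with near-identical copies, at 1.63, 1.71 and 1.26 times.

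Ductal and basal keratins were present in the chosen barcodes at somewhat lower levels. Krt5, a basal keratin, had 661 CPM in proton, 809 in photon and 729 in control chosen barcodes, which was 0.775, 0.720 and 0.719 times its level in the others. Krt14, its basal partner, stood at 0.684, 0.560 and 0.870 times, and the luminal keratins Krt8 and Krt18 lay between 0.623 and 0.800 times. Epcam, an epithelial adhesion protein, was nearly level, at 0.876 times in proton, 0.842 in photon and 0.928 in control. None of the 10 basal or 9 measured luminal duct markers was past 1.5-fold in the same direction in all 3 libraries. The basal list had a median log2 ratio above 0 (0.33 in proton, 0.28 in photon, 0.21 in control) although its summed level was lower: its 4 keratins were below 1 and its 6 other members, among them Trp63 and Itga6, above 1 in every library. The luminal list had medians of -0.49, -0.44 and -0.36.

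The RNA of the chosen barcodes differed in kind from that of the others in all 3 libraries. Malat1 took 1.70% of the UMIs of chosen barcodes in proton, 2.73% in photon and 4.09% in control, and 1.28%, 1.99% and 3.24% in the others, which made ratios of 1.33, 1.37 and 1.26. Neat1 was 1.46-fold, 1.55-fold and 1.35-fold higher. Ribosomal protein genes took 18.0% of chosen and 22.1% of other UMIs in proton, 17.0% and 19.3% in photon, and 15.1% and 17.6% in control, ratios of 0.816, 0.883 and 0.862. The mt- share was close to level in proton, at 1.73% of chosen and 1.69% of other UMIs (ratio 1.02). It was higher in chosen barcodes of photon, at 2.28% and 2.09% (1.09), and of control, at 3.27% and 2.80% (1.17). Their part in the choice of these barcodes was not tested.

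These shares also differed between bins of the score on either side of the boundary. In the proton library, protein-coding genes with bodies of 300 kb and over, without the 5 genes of the rule, took 3.46% of UMIs in barcodes with no rule gene UMI, 4.56% at scores of 5 to 10 and 6.28% above 20. In the photon library the same bins held 2.15%, 2.79% and 3.79%, and in the control library 2.88%, 3.49% and 3.84%. Ribosomal protein genes took 24.0% of UMIs in the lowest and 16.4% in the highest of these bins of the proton library, 19.7% and 16.0% in photon, and 18.1% and 15.2% in control. The change was not even in barcodes with scores above 0 to 2.5. Long genes took 3.45% there in proton and 2.11% in photon, but 2.93% in control, above the 2.88% with no rule gene UMI. Malat1 took 1.05% in proton, 1.75% in photon and 2.93% in control, below its 1.17%, 1.84% and 3.17% in barcodes with no rule gene UMI. The barcodes of this bin were deeper, since 1 rule gene UMI gives a higher score in a shallow barcode. Their median was 4900 UMIs in proton, 4893 in photon and 5117.5 in control, against 2727, 3097 and 2980.5 with no rule gene UMI. The part of depth was not tested. The proton mt- share lay between 1.64% and 1.80% in all bins. In photon the mt- share was 2.04% with no rule gene UMI and 2.34% above 20. In control it was 2.67% with no rule gene UMI, 3.31% from the cut to 20 and 3.10% above 20. The control bin above 20 held 66 barcodes, and its shares of long genes and of Malat1 were below those of the bin under it (3.96% and 4.13%).

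**Figure D2:**
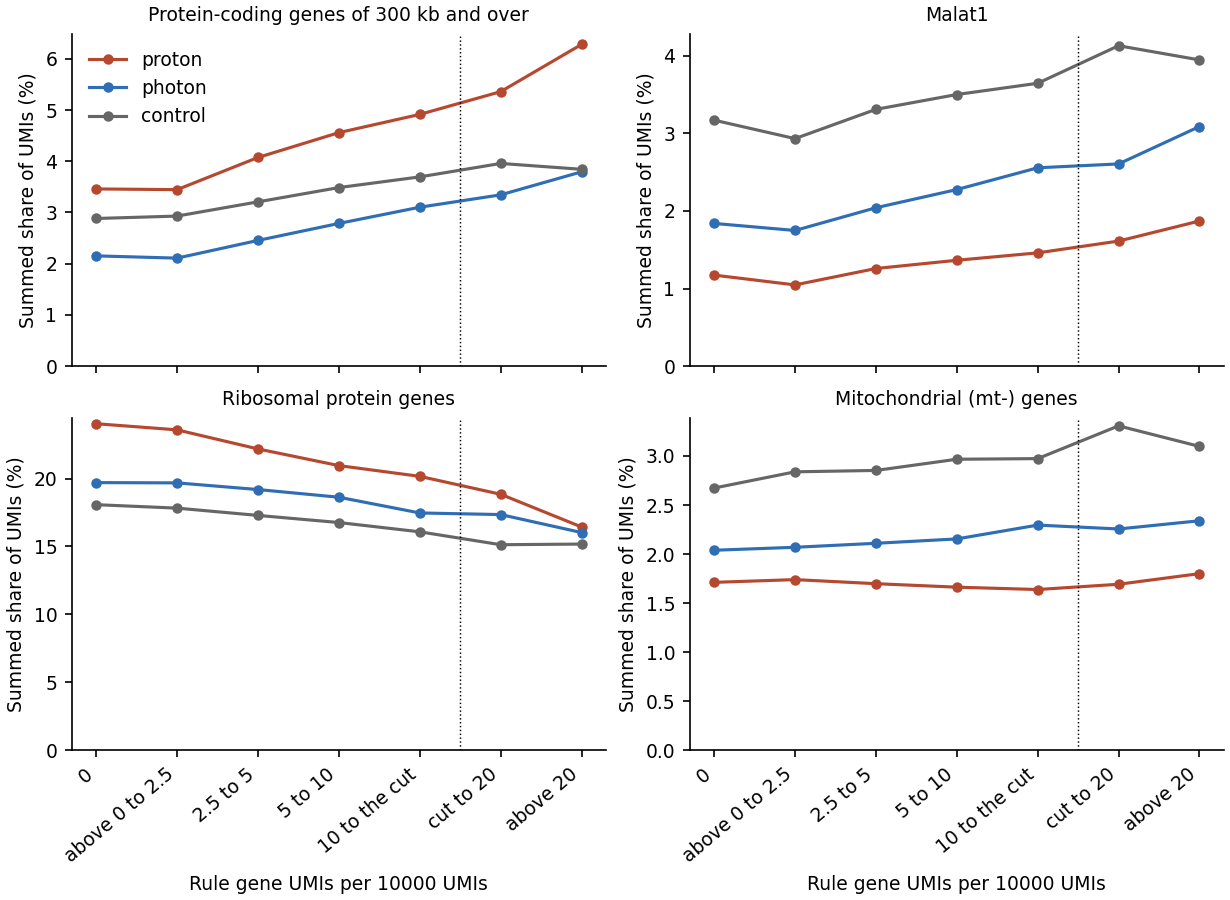
Summed share of UMIs (%) taken by long protein-coding genes without the 5 genes of the rule, Malat1, ribosomal protein genes and mt- genes, against the score in rule gene UMIs per 10000 UMIs, for each library; the dotted line marks the boundary of the chosen barcodes. Long genes and Malat1 took larger shares and ribosomal protein genes smaller shares in the highest than in the lowest bin of each library, while the mt- share differed more between libraries than along the score.

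Gene length ordered the differences between chosen and other barcodes. Among protein-coding genes measured at a mean of at least 10 CPM, those under 10 kb had a median log2 ratio of -0.18 in proton, -0.12 in photon and -0.13 in control, and those of 300 kb and over 0.43, 0.50 and 0.36, with the classes between them in order of length in each library. Summed over genes of 300 kb and over, the share of UMIs was 5.67% in chosen and 4.12% in other proton barcodes, 3.46% and 2.38% in photon, and 3.93% and 3.10% in control. A gene was counted as different where it was at least 1.5-fold higher or lower in all 3 libraries. By that rule 22 of 246 genes of 300 kb and over were higher and 0 lower, against 4 higher and 37 lower of 1756 genes under 10 kb.

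**Figure D3:**
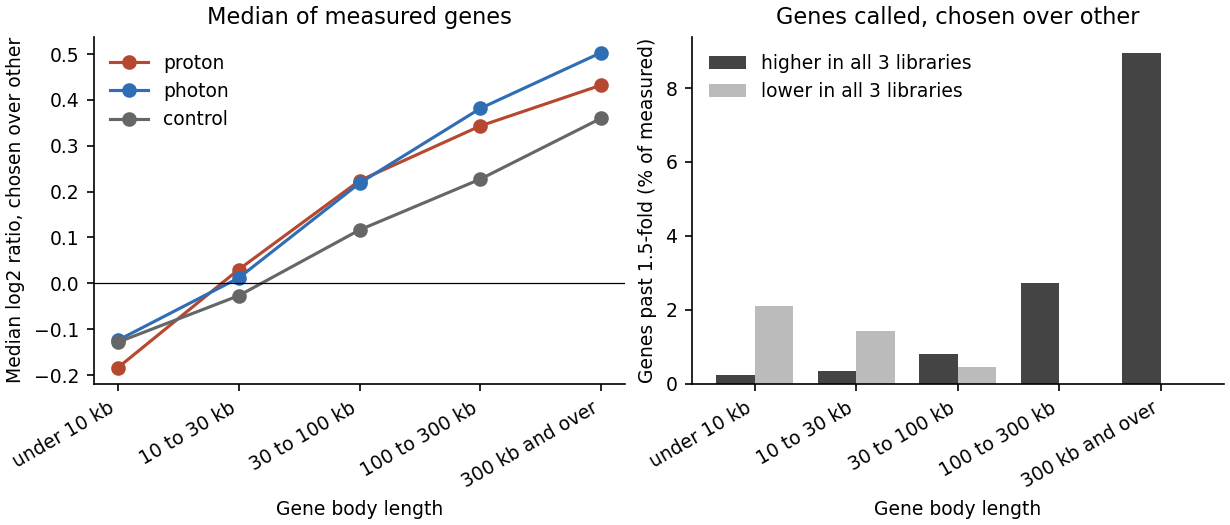
Left, median log2 ratio of CPM of chosen over other barcodes by gene body length, for each library. Right, share of measured genes (%) at least 1.5-fold higher or lower in all 3 libraries. The median went from below 0 in genes under 10 kb to between 0.36 and 0.50 in genes of 300 kb and over, and 8.94% of the longest genes were higher.

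By single library, 312 of 8554 measured genes were higher in chosen barcodes (3.65%) and 216 lower (2.53%) in proton, 753 higher (8.8%) and 361 lower (4.22%) in photon, and 427 higher (4.99%) and 373 lower (4.36%) in control. Over all 3 libraries, 91 of 8554 measured genes were higher in chosen barcodes by that rule (1.06%) and 86 were lower (1.01%), without the 5 genes of the rule. The counting intervals were off 1 in all 3 libraries for 80 of the 91 and 59 of the 86. The median gene was itself shifted by a log2 of 0.12 in proton, 0.12 in photon and 0.05 in control. Set against that median, 42 of the 91 remained higher and all 86 remained lower (100 lower in all), so that higher genes were 51.4% of the calls before and 29.6% after. The median body length was 131 kb for the genes called higher, 11.5 kb for those called lower and 28.7 kb for all measured genes.

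The genes with the largest differences upward were Greb1, Sema3d, Ano3, Nox4, Adam12, Slc7a2, Ror1, Plcb1, Itgb8, Gm35330, Il15 and Cacna2d1. Greb1, known as an oestrogen-responsive cofactor, stood at 26.7 CPM in chosen and 10.8 CPM in other proton barcodes (2.47-fold, 2.02 to 3.02), at 19.7 and 7.00 CPM in photon (2.82-fold, 2.00 to 3.89) and at 9.22 and 2.37 CPM in control (3.90-fold, 1.80 to 7.54). Nox4, an NADPH oxidase that produces hydrogen peroxide, was 2.16-fold higher in proton, 2.43-fold in photon and 3.89-fold in control. Itgb8, an integrin subunit that takes part in activating TGF-beta, stood at 184 CPM in chosen and 91.7 CPM in other proton barcodes, 139 and 64.7 CPM in photon and 145 and 72.2 CPM in control. Il15, a cytokine that sustains lymphocytes, was 2.04-fold, 2.24-fold and 1.95-fold higher in proton, photon and control. Adam12, a metalloprotease, Sema3d, a secreted guidance protein, and Plcb1, a phospholipase, were each between 2.01-fold and 2.40-fold higher in every library. With 10 Greb1, 11 Ror1 and 18 Nox4 UMIs in chosen control barcodes, the control ratios of these genes had wide intervals.

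Of 26 measured targets of p53, the factor that induces cell cycle arrest and death genes after DNA damage, 6 were higher in all 3 libraries and 0 lower, against 1.06% and 1.01% of all genes. Among them were Eda2r, the death receptor gene Fas and Mdm2, the ubiquitin ligase that degrades p53. The others were Polk, a polymerase that copies past DNA lesions, Trp53inp1, a stress-induced cofactor of p53, and Apaf1, which assembles the apoptosome. Trp53inp1 (4:11156431-11174379) stood at 551 CPM in chosen and 309.9 CPM in other proton barcodes (1.78-fold, 1.71 to 1.85), 366 and 178 CPM in photon (2.05-fold) and 285 and 158 CPM in control (1.80-fold, 1.60 to 2.02). Mdm2 (10:117688875-117710758) stood at 225 and 126 CPM in proton, 199 and 114 CPM in photon and 113 and 68.4 CPM in control, and was 1.79-fold, 1.75-fold and 1.65-fold higher.

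The chosen barcodes of the control library, which was not irradiated, also had these differences, and their cause was not tested. The 6 genes had bodies of 17.9 kb (Trp53inp1), 21.9 kb (Mdm2), 37.1 kb (Fas), 43.4 kb (Eda2r), 61.9 kb (Polk) and 93.5 kb (Apaf1). In those length ranges 9 of 2577 genes of 10 to 30 kb (0.349%) and 22 of 2741 genes of 30 to 100 kb (0.803%) were higher. Against the median gene, 5 of the 6 remained higher in all 3 libraries, the exception being Fas. The median log2 ratio of the list was 0.34 in proton, 0.30 in photon and 0.36 in control, or 0.22, 0.18 and 0.31 above the median gene. Perp, an abundant p53 target of epithelia, was nearly level (1.08-fold, 1.12-fold and 0.994-fold), and Ccng1 was 1.34-fold, 1.59-fold and 1.31-fold higher.

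Long adhesion and scaffold genes had 3 of 20 measured members higher in all 3 libraries and 0 lower. Of all genes, 1.06% were higher and 1.01% lower. Exoc4, an exocyst subunit, stood at 1419 CPM in chosen and 846 CPM in other proton barcodes, 719.7 and 388 CPM in photon, and 590.2 and 349 CPM in control. Fhit, which lies in a fragile site, was 2.04-fold, 2.43-fold and 1.87-fold higher, and Auts2 1.76-fold, 1.95-fold and 1.71-fold, in proton, photon and control. Of the Wnt list, 1 of 15 was higher, where 1.06% of all genes were. This was Lgr5, a receptor for R-spondins and a stem cell marker of several epithelia, with 151 UMIs (23.8 CPM) in chosen proton, 47 (21.1 CPM) in chosen photon and 12 (11.1 CPM) in chosen control barcodes, 2.97-fold (2.37 to 3.70), 2.54-fold (1.83 to 3.46) and 1.90-fold (0.967 to 3.40) above the others.

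Of the relatives and partners of the 5 genes, 1 gene was past 1.5-fold in all 3 libraries, St6gal1. Delta protocadherins had median log2 ratios of 0.53 in proton, 0.54 in photon and 0.37 in control over 3 measured members besides Pcdh9. Among delta protocadherins, Pcdh7 was 1.73-fold higher in proton, 1.73-fold in photon and 1.31-fold in control, and Pcdh1 was 1.08-fold, 1.20-fold and 1.29-fold. Of the receptor tyrosine phosphatases, 0 of 9 besides Ptprg were past 1.5-fold in all 3 libraries, and Ptprk, the most abundant, was 1.28-fold, 1.45-fold and 1.11-fold higher. The AMPA receptor scaffold gene Grip1 was 1.27-fold, 1.38-fold and 1.51-fold higher, and Cnih4, a cornichon homolog, stood at 0.702, 0.693 and 0.777 times. The Anks family and its partners had 4 of 7 members besides Anks1b higher in photon (Anks1, Anks3, Apbb2 and Epha2), where 8.8% of all genes were, 1 in proton and 0 in control, with median log2 ratios of 0.33, 0.65 and 0.25 in proton, photon and control. Of 13 N-glycan genes besides Man1a, 1 was higher in proton, 2 in photon and 4 in control. Of all genes, 3.65%, 8.8% and 4.99% were higher there. The sialyltransferase gene St6gal1 was 1.57-fold, 1.61-fold and 1.53-fold higher, and its call ended against the median gene. Man1a2, the closest relative of Man1a in the list, was 1.21-fold, 1.17-fold and 1.20-fold higher.

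Genes of dividing cells were lower in the chosen barcodes. Of 8 measured cycling markers, 5 were lower in all 3 libraries and 0 higher, and so were 8 of 21 S phase genes and 7 of 20 G2 and M phase genes. Of all genes, 1.01% were lower and 1.06% higher. All cycling markers but Pclaf are also in the G2 and M phase list, so these 2 counts share genes. The cycling markers summed to 159.5 CPM in chosen and 452 CPM in other proton barcodes, 89.7 and 584 CPM in photon, and 66.4 and 112 CPM in control. Ube2c, a ubiquitin-conjugating enzyme of mitosis, stood at 27.5 and 91.2 CPM in proton (0.301 times, 0.257 to 0.352), 14.8 and 109 CPM in photon (0.136 times, 0.0933 to 0.191) and 7.38 and 18.1 CPM in control (0.407 times, 0.175 to 0.807). Birc5, an inhibitor of apoptosis needed for chromosome segregation, was at 0.237, 0.120 and 0.299 times. Pcna, the sliding clamp of replication, was at 0.658, 0.542 and 0.640 times. The median ratio of the G2 and M phase list was lower in every library, but close to 0 in control (log2 of -1.12 in proton, -2.30 in photon and -0.13 in control). Several of these genes had fewer than 10 UMIs in chosen control barcodes, among them Ube2c with 8 and Birc5 with 5.

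Some squamous and chemokine genes were also lower. Of 8 squamous markers, Krt6a, Krt13, Krtdap and Sbsn were lower in all 3 libraries and 0 were higher. Of all genes, 1.01% were lower and 1.06% higher. Krtdap, a secreted protein of stratified epithelium, stood at 48.2 CPM in chosen and 354 CPM in other proton barcodes (0.136 times), 16.6 and 205 CPM in photon (0.0810 times) and 11.1 and 39.9 CPM in control (0.277 times). Sprr1a, a precursor of the cornified envelope, did not follow them and was at 1.02, 1.46 and 1.01 times. The neutrophil-attracting chemokine genes Cxcl2, Cxcl3 and Cxcl5 were the 3 of 12 NF-kB response genes that were lower, and Cxcl2 stood at 2.68 and 14.0 CPM in proton, 11.7 and 51.3 CPM in photon and 5.53 and 73.2 CPM in control. Nfkb1 of the same list was 1.31-fold, 1.28-fold and 1.41-fold higher. The other genes with the largest differences downward were 2610528A11Rik, Arg1, Cenpa, Pdzk1ip1 and Spc24.

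**Figure D4:**
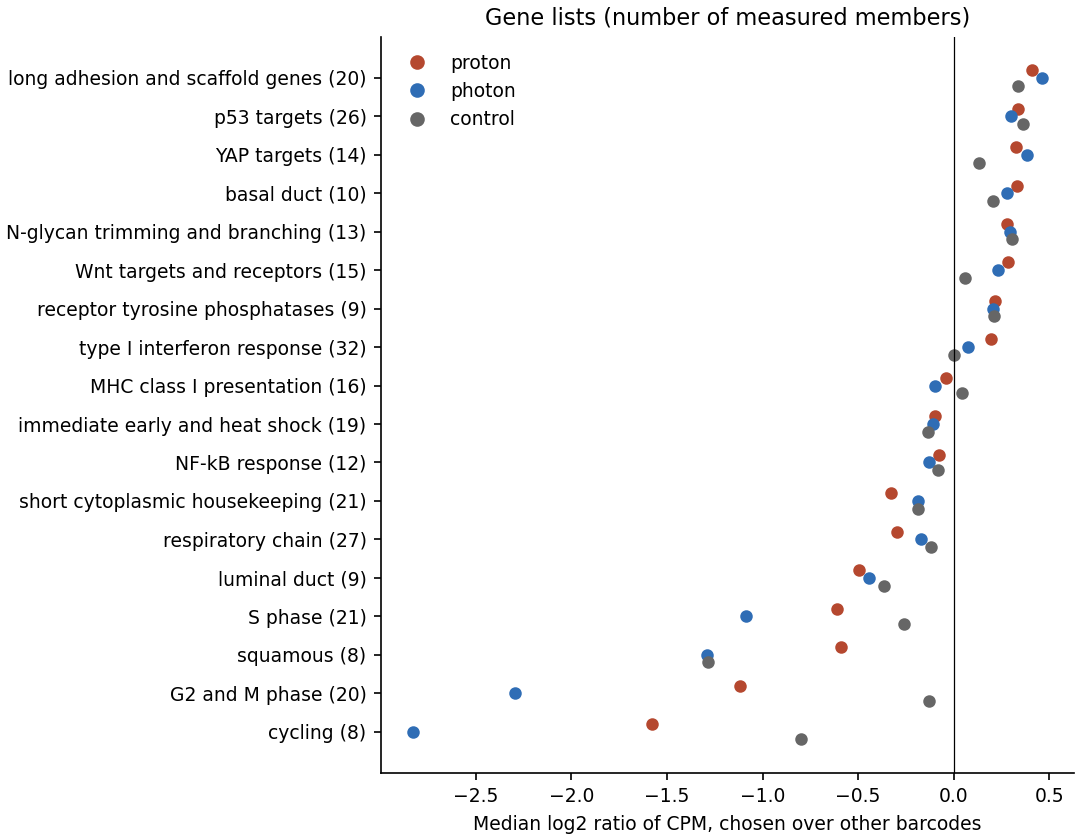
Median log2 ratio of CPM, chosen over other barcodes, for 18 lists of genes and markers; each point is 1 library and the number of measured members without the genes of the rule stands in brackets. The p53 list lay between 0.30 and 0.36 and the cycling list between -2.83 and -0.80; the median of all measured genes was 0.12, 0.12 and 0.05 in the proton, photon and control libraries.

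Different genes of the rule led in different chosen barcodes. With a median of 6 rule gene UMIs per chosen barcode, the leading gene can also vary by counting error, which was not tested. Gria3 gave the most UMIs in 391 proton, 146 photon and 74 control barcodes, Pcdh9 in 253, 115 and 90, Anks1b in 32, 17 and 0, Ptprg in 539, 108 and 67, and Man1a in 329, 204 and 67. No single gene led in 291 proton, 88 photon and 34 control barcodes. Thus Ptprg led most often in proton (29.4%), Man1a in photon (30.1%) and Pcdh9 in control (27.1%). Each subset was compared with the remaining chosen barcodes of its library, a split made after the values were seen, counting genes at least 2-fold apart in all 3 libraries.

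Barcodes led by Pcdh9 had 7 of 8521 genes higher (0.0821%) and 3 lower (0.0352%). Sorbs2, an adaptor of the actin cytoskeleton, stood at 243 CPM in Pcdh9-led and 73.5 CPM in the remaining chosen proton barcodes (3.30-fold, 2.79 to 3.90), 196 and 37.5 CPM in photon (5.23-fold, 3.76 to 7.30) and 80.4 and 17.1 CPM in control (4.70-fold, 2.33 to 9.97). Fn1, which encodes fibronectin, stood at 179 and 50.7 CPM in proton, 250.3 and 22.4 CPM in photon and 130 and 51.3 CPM in control. Msln, a cell surface glycoprotein gene, was 3.71-fold, 2.89-fold and 6.11-fold higher. The others were Npnt, which encodes an integrin ligand of basement membranes, Mal, Ccbe1 and Prss23. The interval of Ccbe1 in control, 0.629 to 8.80, included equality. The 3 lower genes were Anln, Slc9a9 and Rnf168, and their intervals in photon included equality, as did that of Anln in control, where 3.09 CPM stood against 10.5 CPM (0.00662 to 2.19). Mal, a membrane protein of apical transport, was among the genes lower in the chosen barcodes as a whole and was yet 2.53-fold, 3.71-fold and 6.58-fold higher in those led by Pcdh9.

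Barcodes led by Man1a showed partly the opposite values. Of 8510 genes, 2 were higher (0.0235%) and 6 lower (0.0705%). Sorbs2 stood at 19.7 CPM in Man1a-led and 115 CPM in the remaining chosen proton barcodes, 7.62 and 94.7 CPM in photon, and 9.20 and 42.7 CPM in control. The Pcdh9-led barcodes are among those remaining, so these differences and the ones above share values. Krtdap was 2.02-fold higher in proton (1.56 to 2.59) and 2.82-fold higher in photon (1.40 to 5.73), with 1 UMI in the remaining control barcodes (43.9-fold, 6.37 to 1888). Vim, the intermediate filament of mesenchymal and basal cells, was at 0.468, 0.392 and 0.443 times, the last with an interval of 0.0101 to 3.20. Intervals also included equality in at least 1 library for the lower genes Fblim1, Itih5, Arhgap22 and Basp1 and the higher gene Crabp2. Ptprg-led barcodes had 1 gene higher of 8571 (0.0117%) and 0 lower. Gria3-led barcodes had 0 of 8532 (0%) in either direction, by fold alone and with no test.

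**Figure D5:**
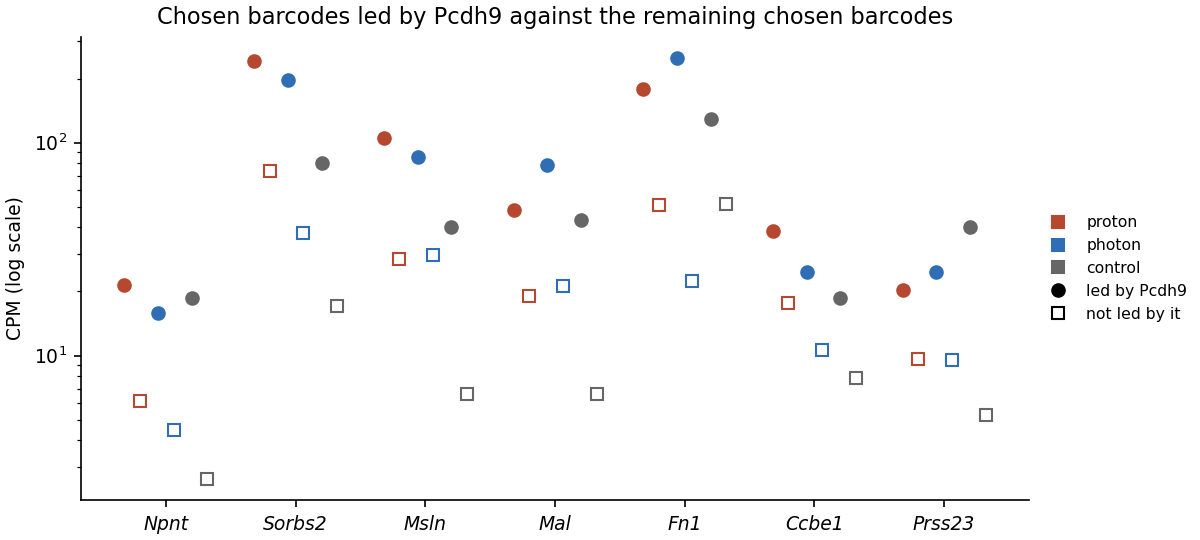
CPM on a log axis of the 7 genes at least 2-fold higher in all 3 libraries in chosen barcodes led by Pcdh9 (filled circles) than in the remaining chosen barcodes (open squares); colours are libraries. Sorbs2 was 3.30-fold higher in proton, 5.23-fold in photon and 4.70-fold in control.

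Within the chosen barcodes the irradiated libraries were set against control. In photon, 696 of 8485 measured genes were at least 1.5-fold higher than in control (8.2%) and 872 lower (10.3%), and in proton 1564 of 8629 were higher (18.1%) and 1394 lower (16.2%). The other barcodes of the same libraries had 6.71% higher and 9.13% lower in photon, and 12.6% higher and 15.3% lower in proton. Set against the median gene, 831 were higher and 707 lower in photon, and 1406 higher and 1524 lower in proton, so that the more frequent direction turned in both comparisons. Both comparisons use the same control library, which held the fewest chosen UMIs. The counting interval was off 1 for 467 of the 696 and 594 of the 872 in photon, and for 1317 of the 1564 and 1265 of the 1394 in proton. Of the genes higher in chosen barcodes, 41.5% in photon and 50.6% in proton were also higher in the others, and these shared genes were 51.6% and 73.8% of those higher in the others.

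Type I interferon response genes, which are induced by signals from the interferon receptor, were far higher in both irradiated libraries. In chosen barcodes 18.1% of all genes were higher in proton than in control, and 8.2% in photon. Of the measured interferon members 31 of 31 were higher in proton and 30 of 30 in photon. Their median log2 ratio in photon was 3.78 in chosen and 3.86 in other barcodes. Isg15, a ubiquitin-like modifier, stood at 625 CPM in chosen proton, 1212 CPM in chosen photon and 51.6 CPM in chosen control barcodes. Its ratios to control were 12.1 in proton (9.29 to 16.0) and 23.5 in photon (18.0 to 31.2) in chosen barcodes, and 13.9 and 25.4 in the others. Ifit3, of a family of antiviral proteins, stood at 240 CPM in chosen proton (1519 UMIs) and 532 CPM in chosen photon (1185 UMIs) barcodes, with 1 UMI in chosen control barcodes. Zbp1, a nucleic acid sensor, stood at 94.3 CPM in proton and 109 CPM in photon, with 2 UMIs in control.

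Ccl5, a chemokine gene, had 1507 UMIs in chosen proton, 301 in chosen photon and 0 in chosen control barcodes. With the control sum of 0 set to 3 counts, it was 86.0-fold higher in proton and 48.8-fold higher in photon. The lower ends of its intervals were 69.9 and 39.5. Set in the same way, Iigp1 was 37.5-fold and 44.3-fold higher (lower ends 30.4 and 35.8), and Rsad2 35.4-fold and 31.8-fold (28.7 and 25.6). Trim30a, Ifi209, H2-Q7, Ifit3b and Cmpk2 were also among the largest differences, and Ifit3 and Ifit3b, the Trim30 genes and the H2-Q genes have near-identical copies whose reads may have been divided between them. Between chosen and other barcodes, 0 of 32 interferon genes were past 1.5-fold in all 3 libraries, where 1.06% of all genes were higher and 1.01% lower. Of the 32, 8 had no UMI in chosen control barcodes and could not be counted as higher there. They could be counted as lower only if 3 counts were still 1.5-fold below the others, so the 0 says little about them. In control alone 4 of the 32 were higher and 1 lower, each on at most 15 UMIs in chosen barcodes, against 4.99% and 4.36% of all genes. MHC class I genes, which present peptides to T cells, were higher in 14 of 16 members in proton and 14 of 16 in photon than in control. Of all genes, 18.1% and 8.2% were. B2m was 5.97-fold and 8.25-fold higher.

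The p53 targets that marked the chosen barcodes differed between irradiated and control organoids in both directions. Mdm2 was 2.00-fold higher in chosen proton than chosen control barcodes (1.66 to 2.42) and 1.77-fold higher in chosen photon than chosen control barcodes (1.44 to 2.18). Eda2r was 2.09-fold and 1.72-fold higher, Trp53inp1 1.93-fold and 1.28-fold, and Apaf1 2.78-fold and 1.82-fold. Fas stood at 0.652 times control in proton (0.471 to 0.919) and at 0.714 times in photon, where the interval of 0.486 to 1.06 included equality. Of 26 measured members 9 were higher and 8 lower in proton, where 18.1% and 16.2% of all genes were. Of 25 in photon 7 were higher and 4 lower, where 8.2% and 10.3% of all genes were, with median log2 ratios of 0.03 and 0.36. Cdkn1a, the inhibitor that carries out p53-dependent arrest, was named after its values were seen: it stood at 216 CPM in chosen proton, 394 CPM in chosen photon and 216 CPM in chosen control barcodes.

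Dividing-cell genes were set against control on both sides of the boundary. In photon over control, the G2 and M phase list had 1 member higher and 2 lower of 6 measured in chosen barcodes, while 24 of 26 were higher and 0 lower in the others. The shares of all genes in photon were 8.2% higher and 10.3% lower in chosen and 6.71% and 9.13% in other barcodes, and with 6 members measured the chosen count is close to them. In proton over control, 6 of 12 were higher and 0 lower in chosen, and 21 of 23 were higher and 0 lower in the others, where 18.1% of all genes in chosen and 12.6% in other barcodes were higher. Top2a, the topoisomerase that untangles replicated chromosomes, stood at 35.2 CPM in chosen proton, 8.97 CPM in chosen photon and 7.38 CPM in chosen control barcodes, and at 74.0, 68.7 and 14.4 CPM in the others. The numbers measured differ because few of these genes reached 10 CPM in the chosen barcodes, and the difference between chosen and other barcodes was not tested.

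Among the genes lowest against control in chosen barcodes, Orm3, Aox3, Itih5 and Ifi27 were common to both radiations. Aox3, an aldehyde oxidase, stood at 16.9 CPM in chosen proton, 17.1 CPM in chosen photon and 159 CPM in chosen control barcodes. Itih5, a hyaluronan-associated protein, stood at 3.79, 6.28 and 43.3 CPM, and Ifi27 at 25.4, 38.1 and 238 CPM, in proton, photon and control. Orm3 (10.7, 15.7 and 114 CPM) is an acute phase gene with close copies, so its reads are uncertain. Cirbp, a cold-inducible RNA-binding protein gene, stood at 44.4 CPM in proton and 279 CPM in control chosen barcodes and was lower to a like degree in the others (0.159 and 0.166 times). The nerve growth factor receptor gene Ngfr and the water channel gene Aqp3 were at 0.237 and 0.243 times control in photon. Slc39a4, Plscr4, Dnah17 and Rflna completed the photon genes, and Fbxo2, Gm48678, Asgr1, Lysmd4 and Gm15283 the proton genes.

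Proton and photon chosen barcodes were also compared directly, with 1663 of 8620 genes higher in proton (19.3%) and 1199 lower (13.9%), and 19.8% higher and 13.9% lower in the other barcodes. Against the median gene, which was 0.10 higher in proton on the log2 scale, higher genes were 42.7% of the calls, and 58.1% without that correction. Immediate early genes, which respond to stimuli within minutes, were lower in proton: Fos stood at 85.3 CPM in chosen proton and 373 CPM in chosen photon barcodes (0.229 times, 0.205 to 0.255) and Jun at 180 and 647 CPM (0.278 times, 0.257 to 0.301). Of the immediate early and heat shock list, 10 of 18 members were lower in proton than in photon and 0 higher. Cited2 and the phosphatase gene Dusp1 were at 0.258 and 0.278 times, and Atg4a, Gm26532, Fam241b, Gm20186, Rida and mt-Nd6 were the others of the 10 lowest. The other barcodes had 0.266 times for Fos and 0.241 times for Jun.

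Top2a was 3.92-fold higher in chosen proton than chosen photon barcodes (2.48 to 6.55) and 1.08-fold in the others (1.01 to 1.15). Lars2, AY036118 and Gm42418 were 4.25-fold, 3.76-fold and 3.54-fold higher in chosen proton than chosen photon barcodes; they can collect reads from ribosomal RNA and are uncertain. The remaining genes of the 10 highest were 9630014M24Rik, Stat5b, Gm15564, Icmt, Gm20594 and Ptk2b. Long adhesion and scaffold genes were higher in proton than photon for 15 of 20 members and lower for 0. In the other barcodes they were higher for 17 of 17. Of all genes, 19.3% in chosen and 19.8% in other barcodes were higher.

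The RNA measures differed between the libraries beside these genes. Within chosen barcodes Malat1 was at 0.415 times its control share in proton and 0.667 times in photon, and the mt- share at 0.529 and 0.697 times. Neat1 was at 0.970 times control in proton (0.920 to 1.02) and 0.507 times in photon (0.473 to 0.543). Genes of 300 kb and over took 1.44 times their control share in proton and 0.879 times in photon. Both kinds of measure thus ordered the libraries differently: Malat1 and mt- were lowest in proton, where the share of chosen barcodes and the share of long genes were highest. In the other barcodes the same ratios were 0.393 and 0.614 for Malat1, 0.602 and 0.748 for mt-, and 1.33 and 0.770 for long genes, in proton and photon. Their part in the library differences was not tested.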

How the data were processed

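Whole-number UMI counts per gene and barcode were deposited by the authors as 1 filtered matrix per library, made from 10x Genomics 3' libraries with Cell Ranger 7.0.1 on mm10, per the submitters' processing notes, while the matrix headers give version 7.0.0. The labels and headers do not say whether intronic reads were counted. From these counts, with Python 3.11.15, NumPy 2.4.6, SciPy 1.17.1 and pandas 2.3.3, barcodes were filtered, scored and chosen as described. The chosen cells and the gene lists were taken up with earlier results of these data known. UMIs were summed over chosen and other barcodes per library and divided by the total of the sum (CPM). Ratios have exact conditional binomial intervals and shares exact Clopper-Pearson intervals, at 95%, and a sum of 0 was set to 3 counts, with no direction called where that bound lay on the wrong side of 1 or both sums were at or under it. UMIs of 1 cell are not independent, so intervals are too narrow. A gene was measured at a mean of 10 CPM over the sums compared and counted as different from 1.5-fold, with no test, since each group has 1 library of pooled animals. Named genes were the 12 highest and lowest of chosen over other, the 10 highest and lowest of each library comparison, and the 4 most abundant measured members of each list; further members are named where the list counts turn on them. Gene bodies came from GENCODE mouse release 21 (mm10), which matched 32235 of 32285 genes. No doublet caller was run; an alternative leaves out the 10% deepest barcodes. The code was tested on simulated data. In all, 19 alternatives were tried. Values of some genes are not reported here.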

Additional observations from a re-analysis of the deposited data

Results flagged for a closer look

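The genes of the rule also differed between libraries in barcodes that the filters left out. The 6586 proton, 5035 photon and 4646 control barcodes that failed (6582, 5032 and 4645 of them with under 2000 UMIs) held the 5 genes at 1058 CPM in proton, 664 CPM in photon and 648 CPM in control. This was 1.63-fold higher in proton than in control (1.57 to 1.70) and 1.02-fold in photon (0.977 to 1.07), and it was singled out because no comparison above uses these barcodes. Anks1b had 335 UMIs there in proton, 122 in photon and 5 in control. The mt- share of the same barcodes was 2.26% in proton, 3.56% in photon and 7.58% in control. Its part in the difference was not tested.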

How the results depend on the processing

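No paired analysis was possible because each group has 1 library. The proton, photon and control shares were 12.6%, 2.72% and 1.27% for the top 5%, 39.1%, 14.8% and 10.1% for the top 20%, 21.5%, 6.87% and 4.06% after thinning each barcode to 2000 UMIs, 21.4%, 6.75% and 4.25% when chosen on 1 portion of UMIs, and 20.1%, 7.56% and 4.47% without Ptprg in the score. Proton and control had 21.7% and 4.28% without Gria3, photon and control 5.78% and 3.85% without Man1a, and proton and photon 25.2% and 5.77% with a minimum of 4000 UMIs. Of the barcodes chosen in the main way, 71.6% were chosen again after thinning and 63.4% when each library gave its own top 10%.

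Of chosen over other, 51 genes were higher for the top 20%, 45 after thinning, 39 on 1 portion of UMIs, 37 without Gria3 in the score, 42 against the median gene, 55 at a mean of 25 CPM, 240 at 1 CPM and 9 at 2-fold; 36 were lower after thinning, 39 at 25 CPM, 185 at 1 CPM and 31 at 2-fold. The genes behind the counts also changed with the choice: 34 of the 91 higher and 31 of the 86 lower genes remained after thinning, and 22 and 53 on 1 portion. Higher genes were 31.5% of the calls on 1 portion, 30.8% without Gria3 and 38.9% with totals that leave out mt-, ribosomal protein, Malat1 and rule gene UMIs.

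Within chosen barcodes, photon over control gave 1111 higher and 1375 lower genes for the top 5%, 1103 and 1428 at 4000 UMIs, 351 and 438 at 25 CPM, 1737 and 1872 at 1 CPM, and 249 and 192 at 2-fold. Proton over control gave 943 higher at 25 CPM, 2890 higher and 2579 lower at 1 CPM, and 538 and 500 at 2-fold. Proton over photon gave 1076 higher at 25 CPM, 3043 higher and 2186 lower at 1 CPM, and 243 and 311 at 2-fold. In the 15 alternatives that give it, the Malat1 ratio of chosen over other lay between 1.27 and 1.40 in proton, 1.31 and 1.44 in photon, and 1.14 and 1.30 in control; the mt- ratio lay between 0.979 and 1.05 in proton and was below 1 in 4 of them. Depth limited the control values most, with 332 barcodes and 1084325 UMIs chosen. Where a value moved, the cause was not tested.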

Other observations

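Several genes of cholesterol and fatty acid synthesis were among those lower in the chosen barcodes; they were picked after their values were seen and belong to no list above. Fdps, which makes farnesyl diphosphate, stood at 60.0 CPM in chosen and 141.5 CPM in other proton barcodes (0.424 times, 0.380 to 0.472), 57.4 and 213 CPM in photon (0.270 times, 0.225 to 0.321) and 24.9 and 58.2 CPM in control (0.428 times, 0.281 to 0.625). Idi1, of the same route, was at 0.498, 0.353 and 0.416 times in proton, photon and control. Scd1, a fatty acid desaturase, was at 0.464, 0.478 and 0.511 times.

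Genes higher in the chosen barcodes, again picked after their values were seen, included Chrm3, the muscarinic receptor that drives saliva secretion, at 362 CPM in chosen and 216 CPM in other proton barcodes (1.68-fold, 1.59 to 1.76), 263 and 132 CPM in photon (1.99-fold, 1.82 to 2.17) and 219.5 and 104 CPM in control (2.11-fold, 1.84 to 2.41). The basement membrane collagen genes Col4a5 and Col4a6, which lie head to head on the X chromosome, were 1.61-fold and 1.71-fold higher in proton, 1.66-fold and 2.09-fold in photon and 1.53-fold and 1.91-fold in control. The call of Col4a5 ended against the median gene. Esr1, the oestrogen receptor gene, was 1.69-fold, 1.72-fold and 1.89-fold higher. Its control interval was 1.04 to 3.18. The bodies of these genes are long, at 485 kb (Chrm3), 214 kb (Col4a5), 309 kb (Col4a6) and 394 kb (Esr1). Long genes as a class were higher in the chosen barcodes, and the part of length in these differences was not tested.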
